A study of Mus musculus with 12 samples.

Results

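The genes described here are those of the unperturbed hippocampus: of the 55487 genes in the deposited table, the 18248 whose normalised count averaged at least 10 over the 6 WT mice. The study sequenced the hippocampus of 12 mice, 6 WT and 6 USF-1 KO, and the USF-1 KO mice, which lack the transcription factor USF-1, enter below for a repeat of the sex comparison and for a few values of spread and range. All WT mice were adults of the C57Bl/6JRccHsd strain aged 3-4 months and came, like the KO animals, from breeding of heterozygous parents. The labels name no treatment, and whether these mice had been through behavioural tests before they were killed is not given in the sources used here. The labels give 4 females (WT 490, WT 522, WT 523 and WT sample573) and 2 males (WT 493 and WT 547), and each library is a single mouse, named here by genotype and the number in its label (sample573 is spelled as in its label and drawn by its number). The study's legend for its RNA sequencing figure gives equal numbers of males and females in each genotype, which differs from the labels used here. RNA was total RNA from dissected tissue, so every value is a sum over all cells in the piece.

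The hippocampus is a folded sheet of cortex in which granule cells of the dentate gyrus project to the pyramidal cells of CA3, which project to those of CA1. Along its fimbria it borders the choroid plexus, the epithelium that secretes cerebrospinal fluid, and the thalamus lies beneath it while the neocortex and white matter lie above. Immediate early genes are transcribed within minutes of neuronal firing without new protein synthesis, and their RNAs are short-lived.

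WT mice were sequenced to between 23369928 reads (WT 522) and 32091173 reads (WT 490) on genes. 3 libraries stood apart in the shares of counts or of genes that follow. WT 493 and WT 490, a male and a female, held 0.985% and 0.377% of their counts on 18 genes of the choroid plexus, against 0.0165% to 0.0274% in the other 4 mice. WT 522, the shallowest library, had the highest value of 26.6% and the lowest value of 25.2% of all 18248 genes. Its mitochondrial chromosome took 4.87% of the counts, against 4.12% to 4.51% in the other 5 mice, and its long intergenic noncoding RNAs 1.38%, against 1.08% to 1.28%. Where leaving out a single mouse moved the SD of a gene list by over 1.5 times, the SD without it is given beside it.

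The reads of the WT hippocampus were concentrated on few genes. Of the 18248 genes, 14519 (79.6%) were protein coding, 1677 were processed pseudogenes and 494 long intergenic noncoding RNAs, and together they held 99.9% of all counts. The 10 genes with the highest mean held 7.43% of the counts, the top 100 held 20.6% and the top 1000 held 50.9%. At the lower limit, the means of B3gnt8 (10.0029) and Adra2b (10.004) were just inside, whereas Aldh1a7 (9.99) and the unnamed transcript Gm38297 (9.99) were just outside. The limit therefore separated genes of the same level, and a gene such as Adra2b passed it through 1 mouse, with 30.2 normalised counts in WT 490 against a median of 5.26.

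Mitochondrial transcripts led the list. The respiratory chain subunit mt-Co1 averaged 268150 ± 25244 normalised counts (SD, n = 6), mt-Cytb 188813 ± 13920 and mt-Nd4 168638 ± 12694. The single highest mean, 271211 ± 16904, belonged to Gm10925, which is not an ordinary gene but a nuclear copy of mitochondrial DNA on chromosome 1 (GRCm38, chr1:24613974-24614651, reverse strand). Every 75-base stretch of Gm10925 also occurs in mt-Atp6, yet mt-Atp6 was listed at 0 in all 6 WT mice. The same held for 2 neighbouring copies. Gm28437 averaged 202460 ± 9620 while its mitochondrial twin mt-Co3 stood between 0 and 2.39, and Gm28661 averaged 201983 ± 8479 while mt-Co2 stood between 0 and 0.854. How the counting divided reads between such pairs is not given in the sources used here. The levels of Gm10925, Gm28437, Gm28661, Gm29216 and Gm13340 and of their mitochondrial partners, among them mt-Co1, are therefore uncertain. These 5 pseudogenes took 3.78% to 4.17% of the counts of a mouse. The level of mt-Nd4 is uncertain too, since 61.5% of its 75-base stretches also occur in Gm28439.

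Among nuclear genes outside these copies the leaders were neuronal. Camk2a, the alpha subunit of the calcium-dependent kinase of excitatory synapses, averaged 115983 ± 14265 normalised counts and ranged from 97439 in WT 493 to 137422 in WT 522. Meg3, an imprinted long noncoding RNA, averaged 106722 ± 11817. Per kilobase of exon, which allows for gene length, the order changed. The length was that of all annotated exons of a gene together, not of the isoform expressed, so these ranks are approximate. Bc1, a short noncoding RNA of dendrites, reached 213278 normalised counts per kilobase and stood 5th of all genes, Camk2a 15537 (26th) and Meg3 5900 (92nd). Bc1 was also the most uneven of these, from 23328 normalised counts in WT 490 to 48832 in WT sample573 (SD 0.44 on the log2 scale).

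Markers of the hippocampal subfields were present in every mouse. Prox1, the transcription factor of dentate granule cells, ranged from 1841 to 3381 normalised counts with a median of 2375. Wfs1, of CA1 pyramidal cells, ranged from 3595 to 6016 with a median of 4433, and Rgs14, of CA2, from 2698 to 4072 with a median of 3124. Per kilobase, the glutamate transporter of excitatory vesicles Slc17a7 stood at 6687 normalised counts, the astrocyte glutamate transporter Slc1a2 at 5183, the inhibitory enzyme Gad1 at 960, the microglial complement gene C1qa at 1049 and the endothelial junction gene Cldn5 at 380. The myelin gene Mbp stood at 9435 normalised counts per kilobase, above each of these.

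Spread between mice was measured as the SD of log2(normalised count + 1) over the 6 WT mice. Its median was 0.148 over the 18248 genes and 0.110 over the 12721 genes with a mean of at least 100, equal to median coefficients of variation of 10.4% and 7.64%. Over the same genes the 6 USF-1 KO mice had medians of 0.140 and 0.103. Counting error alone would give a median SD of 0.0736 and 0.0507, and the observed SD exceeded 2 times the counting SD in 43.1% and 53.3% of genes. The share depended on level: it was 14.2% for means of 10 to 30 and 98.5% for means of 10000 or more. Median SD went from 0.414 to 0.0911 along the same range, and the median counting SD from 0.325 to 0.0113. Above a mean of 3000 the median SD was thus 0.0880 or higher although counting error would leave 0.0210 or less. An SD above 1 was reached by 291 genes (1.59%), and by 75 of the genes with a mean of at least 100.

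**Figure D1:**
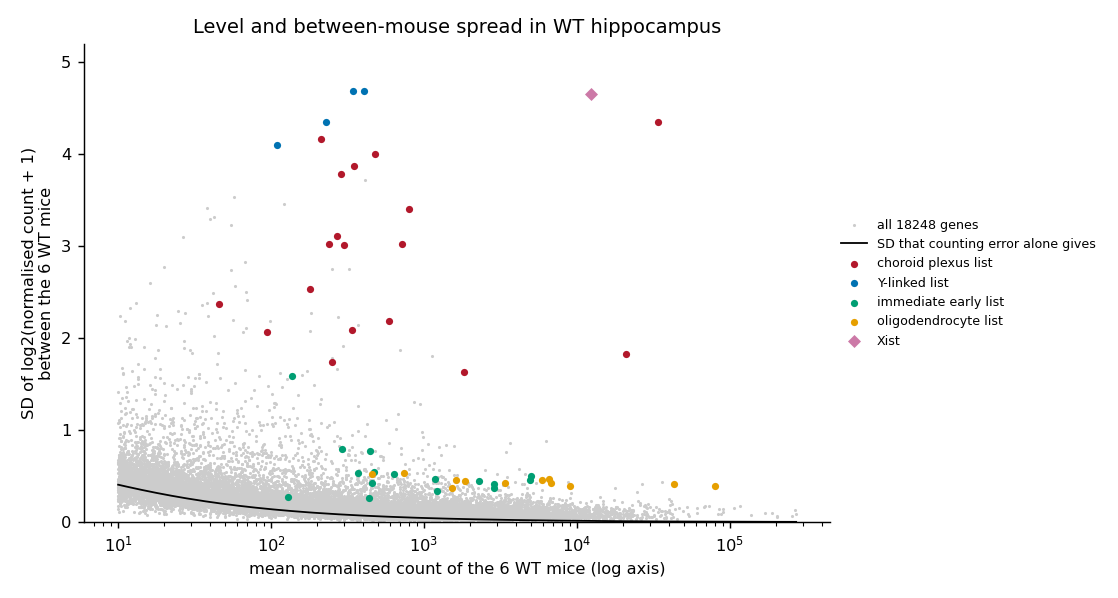
Each point is 1 of the 18248 genes, with its mean normalised count over the 6 WT mice on a logarithmic horizontal axis and the SD of log2(normalised count + 1) between these mice on the vertical axis; the black line is the SD that counting error alone gives. Choroid plexus genes (red, 18), Y-linked genes (blue, 4) and Xist (diamond) lie above most grey points, whose median SD is 0.148, and immediate early (green, 16) and oligodendrocyte genes (orange, 12) lie lower, near the upper edge of the grey points at their level or among them.

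Most of the genes with the largest spread were sex-linked or choroid plexus genes. Of the 25 genes with the largest SD among those with a mean of at least 100, 13 belong to the choroid plexus list of 18 genes, 4 lie on the Y chromosome, and the others were Xist, Mfrp, Gm27177, Col8a1, Ecrg4, Trpv4, Col8a2 and Abca4. Both WT 493 and WT 490 lay above every other WT mouse in 19 of the 25, against 8.63% of the 12721 genes. The median SD of the 25 was 3.40 over all 6 mice and 0.9998 over the 4 mice without WT 490 and WT 493, and 0.110 and 0.108 are the same medians over the 12721 genes. With the limit of 100 applied to the mean of those 4 mice, 5 of the 25 were also among their 25 largest, namely Xist, the Y-linked genes Ddx3y, Eif2s3y and Kdm5d, and Ttr; with the limit on the mean of all 6 mice the number was 8. The 25 genes were chosen by this SD, so the counts are descriptions.

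Ttr, the thyroid hormone carrier transthyretin and the most abundant secreted product of the choroid plexus, stood at 149554 in WT 493 and at 52017 in WT 490, in normalised counts. In the other mice it had 714 (WT sample573), 419 (WT 522), 185 (WT 523) and 139 (WT 547), so the highest value was 1075 times the lowest. It took 0.589% of all counts of WT 493 and 0.000540% of those of WT 547. The SD of Ttr was 4.35 on the log2 scale, and 1.08 without WT 490 and WT 493. Among the KO mice Ttr stood between 282 and 1530.

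All 18 genes of the choroid plexus list followed the same order at the top, with WT 493 highest and WT 490 next. The share of all 18248 genes in which both mice exceeded the other 4 was 9.38%. The members of this list, as of all lists here, were chosen with earlier results of these data known. The 2 mice were paired after seeing the data, so the counts are descriptions. Enpp2, which encodes the lipid-producing enzyme autotaxin, stood at 73911 normalised counts in WT 493, 32980 in WT 490 and 3354 to 5358 in the others. Kl, which encodes the ageing-related membrane protein Klotho, stood at 6173, 2750 and 376 to 554. These 2 genes kept a substantial level in the low mice, whereas the channel subunit Kcne2 was at 894 and 367 in the high mice and between 0 and 4.03 in the others.

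The rest of the list shows the working parts of this epithelium. Aqp1, its water channel, had 1192 and 380 normalised counts in WT 493 and WT 490 and 7.06 to 14.8 elsewhere. Folr1, the folate receptor, had 1255 and 488 against 9.09 to 17.5, and the bicarbonate transporter Slc4a5 1520 and 549 against 0.924 to 15.4. Otx2, the transcription factor that specifies choroid plexus, had 689 and 301 against 7.95 to 35.0. Prlr, the prolactin receptor, had 2014 and 1164 against 68.6 to 109. In each of these genes WT 493 was also above WT 490, as the plot of choroid plexus genes by mouse shows. In bulk tissue, more cells of a type and more RNA per cell cannot be told apart, and the labels describe no difference in dissection.

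**Figure D2:**
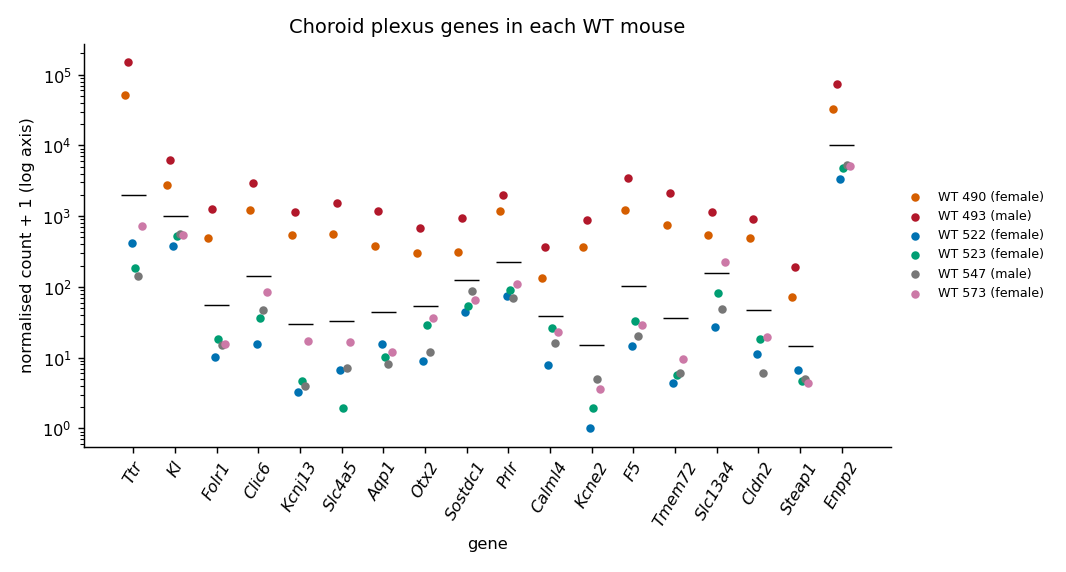
Normalised count + 1 on a logarithmic axis for each of the 18 choroid plexus genes in each of the 6 WT mice (coloured points); black bars are the means on the log scale. WT 493 is highest and WT 490 next in all 18 genes, for example 149554 and 52017 for Ttr against 714 or fewer in the others.

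Some genes went from near absence to clear detection between mice. At 3 reads or fewer in at least 1 WT mouse and at least 50 normalised counts in another stood 48 genes, a rule chosen after seeing the data; in 34 of them WT 490 and WT 493 lay above the rest, against 9.38% of all genes, and 5 were on the Y chromosome. Any gene high in that pair alone meets the rule readily, so nothing is read from the count. Slc16a8, a lactate transporter of the choroid plexus, stood at 150 and 79.5 normalised counts in WT 493 and WT 490 and at 0 to 0.854 in the other mice, and the cadherin Cdh3 at 185 and 66.0 against 0 to 1.14. At about 23369928 reads or more per library, a value of 0 leaves room for up to 3 reads, a limit for counting error only.

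Genes of motile cilia, listed for the ciliated ependyma, the fluid-facing surface next to the plexus, were higher in WT 493 but not in WT 490. Which cells carried these RNAs was not tested. The level of a list is the mean over its genes of the log2 values after subtracting that gene's WT mean. For the 9 measured genes of motile cilia it was 1.18 in WT 493, -0.26 in WT 490, -0.90 in WT 522 and between -0.15 and 0.16 in the other 3 mice. WT 493 had the highest value in 9 of the 9 genes, against 18.2% of all genes. Foxj1, the master transcription factor of motile cilia, had 641 normalised counts in WT 493, 133 in WT 522 and 245 to 314 in the other mice. Ccdc153 had 180 in WT 493 and 28.6 in WT 490. Without WT 493 the SD of the list's level was 0.40 in place of 0.68.

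Genes of the meninges, the fibroblast layers that wrap the brain, split the mice differently, into 3 high and 3 low. The list of 12 had levels of 0.80 in WT 493, 0.64 in WT 490 and 0.63 in WT sample573, and of -0.52, -0.74 and -0.80 in WT 523, WT 547 and WT 522. In 10 of the 12 genes the former 3 mice all exceeded the latter 3, against 6.49% of all genes; the mice were grouped after seeing these values. Fmod, a small collagen-binding proteoglycan, stood at 281, 226 and 208 normalised counts in WT sample573, WT 490 and WT 493 and at 54.5 to 57.9 in the others. Aldh1a2, the retinoic acid-producing enzyme of the meninges, stood at 173, 135 and 107 against 28.4 to 43.4, and the collagen gene Col1a1 at 248, 243 and 239 against 115 to 126. WT sample573 thus had RNA of this list near the level of WT 490 and WT 493 while its Ttr was at 714. The same mouse was also highest in 9 of 12 endothelial and 9 of 11 mural genes, against 11% of all genes. Which tissue the RNA of the list came from was not tested.

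Thalamic genes followed the same 3 mice with another order. Their list of 9 measured genes had a level of 0.81 in WT 490, 0.40 in WT sample573 and 0.34 in WT 493, and of -0.36 to -0.71 in the other 3. The 3 high mice exceeded the others in 6 of 9 genes, against 6.49% of all genes. Prkcd, a kinase of thalamic relay neurons, had 2057 normalised counts in WT 490, 1225 in WT sample573, 1058 in WT 493 and 335 to 733 in the others. Tcf7l2, a transcription factor of thalamus and habenula, had 672, 231 and 329 in the same mice and 102 to 117 in the others. The homeobox gene Shox2 was at 192 in WT 490, 81.9 in WT sample573 and 70.1 in WT 493, and at 0 to 1.14 in the other 3. Tac2 and Gpr151, markers of the habenula, did not follow: Tac2 was lowest in WT 490 (42.9) and highest in WT 522 (107), and Gpr151 was also lowest in WT 490 (11.1).

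**Figure D3:**
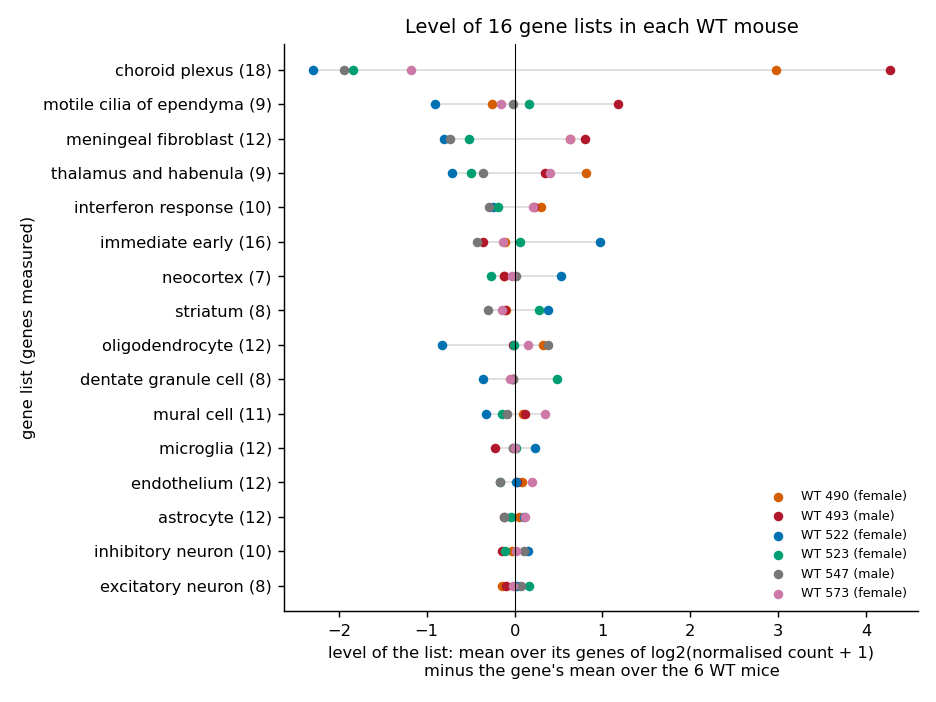
Level of 16 gene lists in each of the 6 WT mice: log2(normalised count + 1) less the WT mean of the gene, averaged over the list's genes, with the number of genes measured in parentheses. Choroid plexus spans -2.29 to 4.27, WT 522 (blue) is highest in the immediate early and neocortex lists and lowest in the oligodendrocyte list, and the astrocyte, neuron and endothelium lists span 0.360 or less.

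Immediate early genes were highest in WT 522 in 16 of 16 cases, against 26.6% of all genes. The level of the list was 0.97 in WT 522, 0.06 in WT 523 and between -0.42 and -0.11 in the other 4 mice, and without WT 522 its SD dropped from 0.51 to 0.20. Fos, which encodes a subunit of the AP-1 transcription factor, had 980 normalised counts in WT 522, 426 in WT 490, 407 in WT sample573, 398 in WT 523, 262 in WT 493 and 204 in WT 547. Its relative Fosb had 743 in WT 522 and 161 to 234 in the others, so that no other mouse came near. Arc, an RNA transported to active synapses, overlapped less clearly, with 7766 in WT 522, 6135 in WT 523 and 3037 to 5086 in the other 4. The neuron-specific factor Npas4 had 886 against 277 to 447. Genes for synaptic proteins showed the same order at the top: Homer1, a postsynaptic scaffold, had 4929 against 2264 to 2591, and Nptx2, a secreted synaptic pentraxin, 1187 against 406 to 616.

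Egr2, a zinc finger transcription factor, varied most in the list. It had 478 normalised counts in WT 522, 127 in WT 523, 73.2 in WT 490, 68.3 in WT sample573, 59.4 in WT 493 and 15.1 in WT 547. Its SD was 1.59 on the log2 scale, against 0.26 for Btg2 and 0.46 for the median member. WT 522 also had the highest mitochondrial and noncoding shares given above and stood at the extremes of many genes. WT 523, next in immediate early level at 0.06, had the lowest mitochondrial share, 4.12%. The part of these shares and extremes in the immediate early level of a mouse was not tested.

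The upstream sequences of 3 members are shown because their windows hold an exact match to a binding site known from immediate early promoters. These 3 were highest in WT 522, as were all 16 members of the list. Windows of the 250 bases before a RefSeq gene start (GRCm38.p6) were searched for the cAMP response element TGACGTCA, which reads the same on both strands, and for the 10-base CArG box, the site of serum response factor, which is also matched on both strands. In capitals are the CArG box of Egr2 (chr10:67537619-67537868, forward strand) and the TGACGTCA of Dusp1 (chr17:26508473-26508722, reverse strand) and of Btg2 (chr1:134079156-134079405, reverse strand), each written 5′ to 3′ on the strand of the gene.
Egr2: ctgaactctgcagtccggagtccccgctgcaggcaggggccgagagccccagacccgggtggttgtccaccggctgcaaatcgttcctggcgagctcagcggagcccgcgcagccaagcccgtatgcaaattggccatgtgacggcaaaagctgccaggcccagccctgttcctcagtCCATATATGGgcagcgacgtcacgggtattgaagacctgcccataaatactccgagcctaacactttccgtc
Dusp1: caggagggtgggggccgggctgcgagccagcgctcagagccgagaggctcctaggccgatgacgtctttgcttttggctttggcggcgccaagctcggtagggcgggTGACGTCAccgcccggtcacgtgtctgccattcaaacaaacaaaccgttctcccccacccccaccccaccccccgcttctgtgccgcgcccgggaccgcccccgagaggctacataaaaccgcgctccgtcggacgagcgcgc
Btg2: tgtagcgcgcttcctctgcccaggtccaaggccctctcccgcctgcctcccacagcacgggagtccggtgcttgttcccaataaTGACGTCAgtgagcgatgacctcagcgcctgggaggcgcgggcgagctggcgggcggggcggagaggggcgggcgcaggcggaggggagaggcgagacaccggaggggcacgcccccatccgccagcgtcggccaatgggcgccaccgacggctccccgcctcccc

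The CArG box of Egr2 begins 72 bases before that start, and the TGACGTCA begins 143 bases before the start of Dusp1 and 166 before that of Btg2. Of the 16 members, 11 matched windows by symbol, 16 windows in all because Egr2 has 5 and Homer1 has 2 annotated starts. TGACGTCA was in 2 of these 16 windows and in 1.55% of all 32851 windows, and the CArG box in 4 windows, all of Egr2 and overlapping for 3 of its starts, against 1.47% of all windows. Counted by gene, TGACGTCA was in 2 of the 11 members, against 1.77% of all 27025 genes. The CArG box was in 1 of the 11, against 1.62%. Beside these sequences, Dusp1, a phosphatase that switches off MAP kinases, had 742 normalised counts in WT 522 and 342 to 513 in the other mice, and Btg2, an antiproliferative gene, 575 against 369 to 495. Egr2, with the CArG box, spread over a 31.6-fold range and Btg2 over a 1.56-fold range. A match describes letters only. The lack of a match says nothing of variant sites, of bases further upstream or of members without a window.

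**Figure D4:**
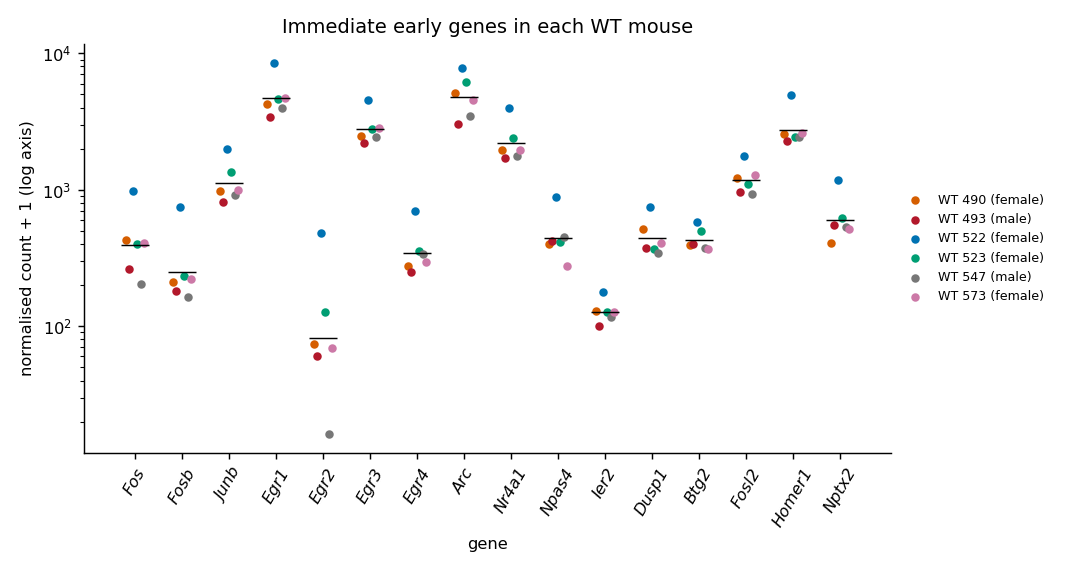
Normalised count + 1 on a logarithmic axis for each of the 16 immediate early genes in each of the 6 WT mice (coloured points); black bars are the means on the log scale. WT 522 (blue) is highest in all 16 genes, and Egr2 has the widest range, from 15.1 in WT 547 to 478 in WT 522.

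Oligodendrocyte genes were lowest in WT 522 in 12 of 12 cases, against 25.2% of all genes. Their level was -0.83 in WT 522, -0.02 in WT 493, -0.01 in WT 523 and between 0.15 and 0.38 in WT sample573, WT 490 and WT 547. Mbp, the myelin basic protein gene, had 46239 normalised counts in WT 522 and 75935 to 99872 in the other mice. Mog, a protein of the outer myelin surface, had 862 against 1477 to 2039, and Cldn11, the tight junction protein of myelin, 1903 against 3035 to 4128. No member overlapped between WT 522 and the other mice, and without WT 522 the SD of the list's level was 0.18 in place of 0.44. Genes of oligodendrocyte precursors had a list SD of 0.09, or 0.04 without WT 493.

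Neocortical genes were in turn highest in WT 522 in 6 of 7 cases, against 26.6% of all genes. Cux2, a transcription factor of upper cortical layers, had 2282 normalised counts in WT 522 and 600 to 1227 in the others. Lamp5 had 1629 against 794 to 1187, and Tbr1, a transcription factor of deep layers, 2021 against 1078 to 1316. Etv1, of layer 5, was the exception and lowest in WT 522, at 1841 against 1927 to 3035. Genes outside the list behaved likewise at the low end of the first component described below: Otof, which encodes the calcium sensor otoferlin, had 1337 against 170 to 324, and Cckbr, a cholecystokinin receptor, 1108 against 171 to 394. Without WT 522 the SD of the list's level was 0.11 in place of 0.28. Both Cux2 and Tbr1 are also expressed within the hippocampal formation, so the list does not distinguish the regions.

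Dentate granule cell genes singled out another mouse, WT 523. The level of the list was 0.49 in WT 523, -0.36 in WT 522 and between -0.05 and -0.02 in the other 4 mice. WT 523 was highest in 7 of 8 genes, against 14.9% of all genes, and Calb1, a calcium buffer that CA1 also expresses, was the exception. Prox1 had 3381 normalised counts in WT 523, 1841 in WT 522 and 2098 to 2480 in the others. C1ql2, a synaptic organiser of mossy fibres, had 2567 in WT 523, 1055 in WT 522 and 1665 to 2008 in the others. The lists of CA1 and of CA2 and CA3 pyramidal cells had SDs of 0.15 and 0.11, against 0.27 for the dentate list. Without the mouse that moved each most, the SDs were 0.15 for the dentate list (WT 523 left out), 0.09 for CA1 (WT 547 left out) and 0.07 for CA2 and CA3 (WT 522 left out).

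Lists of the other cell classes are given by the SD of their level. This SD was 0.11 for the astrocyte and excitatory neuron lists, 0.12 for inhibitory neurons, 0.14 for microglia and endothelium and 0.23 for mural cells of vessels. Small SDs went with a shared order in some of them. Microglial genes were lowest in WT 493 in 12 of 12 cases, against 16.9% of all genes, and highest in WT 522 in 10 of 12, against 26.6%. Vessel genes were highest in WT sample573 in 9 of 12 endothelial and 9 of 11 mural cases, against 11% of all genes. The SD was 0.38 for red blood cell genes, or 0.21 without WT 523, the lowest, and 0.18 for neurogenesis. It was 0.27 for the striatum list, whose level was highest in WT 522. Gene by gene, WT 523 was highest in 4 of these 8 and WT 522 in 3, against 14.9% and 26.6% of all genes. Among lists of cellular state the SD was 0.07 for heat shock genes, 0.12 for clock genes and for mitochondrially encoded genes, and 0.13 for glucocorticoid response genes. Without WT 522 it was 0.07 for both clock and mitochondrially encoded genes, and without WT sample573 it was 0.07 for glucocorticoid response genes. Interferon response genes had an SD of 0.27 and were higher in WT 490, WT 493 and WT sample573 (0.30, 0.22 and 0.21) than in the other 3 mice (-0.19 to -0.29), with no overlap in 6 of 10 genes, against 6.49% of all genes. Only 2 of 10 hypothalamic and pituitary hormone genes passed the limit, with an SD of 0.29 over their level, and the growth hormone gene Gh was at 0 in all 6 mice.

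At the other extreme, some genes were nearly identical in all mice. Among genes with a mean of at least 1000, the smallest SDs included those of 9 genes at 0.0136 to 0.0167, below the SD that counting error gives. Ktn1, a kinesin-binding membrane protein, ranged from 2284 to 2333 normalised counts around a mean of 2316 ± 21.8, and the splicing factor Srsf1 from 4532 to 4658. The others were Cdadc1, Slc36a4, Washc5, Vcpip1, Chmp2b, Wrnip1 and Hsdl1, none of them a marker in any list here. They were chosen for this SD, and in the KO mice the SD of Ktn1 was 0.06.

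A principal component analysis of the 12721 genes placed the mice by the same features. The first component held 50.1% of the variance, with WT 493 at 31.7 and WT 490 at 16.1 on one side and the other 4 mice between -20.9 (WT 522) and -6.56 (WT 547). Its 10 genes at the high end were Kcne2, Ttr, Tmem72, Slc4a5, Kcnj13, Mfrp, F5, Clic6, Folr1 and Aqp1, 9 of them in the choroid plexus list. Its low end held Xist, Egr2, Otof and Cckbr. The second component (20.8%) ran from WT 522 at -16.7 to WT 547 at 19.8. Its high end held the 4 Y-linked genes together with the cilium genes Dnah11, Ak7, Hydin and Dnah6. At its low end were Xist, Igfn1, Ttr and Egr2, so sex-linked genes were mixed with others on it. The male WT 493, at 0.44, lay below the female WT 523, at 7.38. Without WT 490 and WT 493 the first component held 54.5%.

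**Figure D5:**
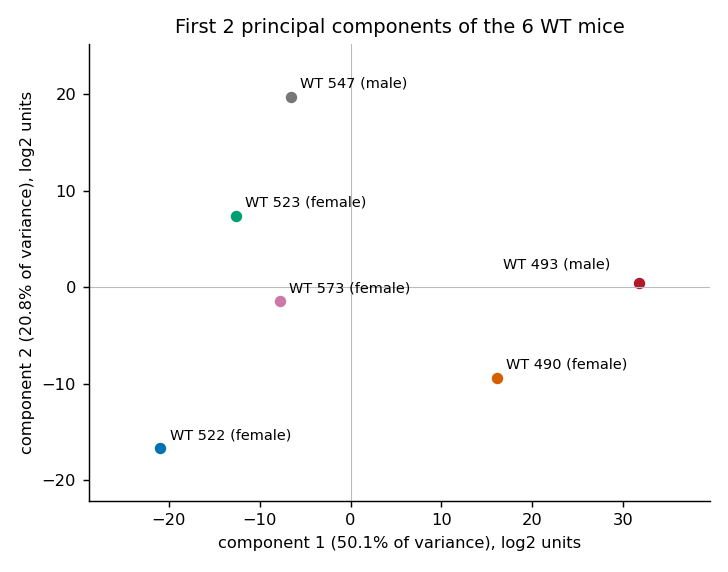
The 6 WT mice on the first 2 principal components of log2(normalised count + 1) over 12721 genes with a mean of at least 100; each point is a mouse. WT 493 (31.7) and WT 490 (16.1) lie apart on the first axis, and WT 522 (-16.7) and WT 547 (19.8) at the ends of the second.

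Some variable genes belonged to none of these groups. Gm27177, annotated as an antisense transcript (chr14:69582164-69683286, reverse strand, GRCm38), had 203, 185, 181 and 159 normalised counts in WT 490, WT 522, WT 547 and WT 493, and 0 in WT 523 and 2.56 in WT sample573. Every 75-base stretch of it also occurs in Gm16867, Entpd4 or Entpd4b, and the strand setting of the counting is not given in the sources used here, so this present-or-absent pattern is uncertain as a property of Gm27177. Ccl21b, a lymphoid chemokine annotated on an unplaced scaffold, had 181 in WT 522 and 141 in WT 523 and 0.795 to 1.71 in the other 4. Stretches of Ccl21b shared with other genes could not be checked, because the transcripts searched held none of its sequence. Whether this pattern belongs to Ccl21b alone is therefore uncertain too. Igfn1, an immunoglobulin-domain protein of muscle, had 685 in WT 522, 180 in WT 493, 121 in WT 490 and 11.1 to 58.9 in the others, a 61.8-fold range that matched no list. Avp, the vasopressin gene, was just under the limit with a mean of 9.93, of which WT 547 held 42.4 and the other mice 1.85 to 5.68.

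Sex was the only labelled contrast among the WT mice, and few genes passed its test. With limma on log2(normalised count + 1), 8 of 18248 genes (0.0438%) differed between the 2 males and 4 females at a Benjamini-Hochberg adjusted p under 0.05, 5 higher and 3 lower in males, whereas 955 had an unadjusted p under 0.05. All 8 lie on the sex chromosomes or the mitochondrial chromosome. Xist, the RNA that silences an X chromosome in females, stood at 16816 to 22913 normalised counts in females and at 24.2 and 51.0 in males (log2 difference -9.00 ± 0.27 SE, limma adjusted p = 4.3e-05). The Y-linked helicase Ddx3y stood at 1341 and 1095 in the males and at 0.795 to 3.41 in the females. The other calls on the Y chromosome were Eif2s3y, Kdm5d, Uty and the noncoding Gm29650. Every WT mouse matched the sex of its label.

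Eif2s3x, the X-linked partner of Eif2s3y that escapes X inactivation, was called as lower in males, at 1896 and 1902 normalised counts against 2606 to 2850 in females (log2 difference -0.55 ± 0.06 SE, limma adjusted p = 0.048). That call was lost with a pseudocount of 0.5, no limit on the mean, a mean of at least 50 or no trend (limma adjusted p from 0.060 to 0.47). It was also lost on leaving out any female but WT 522. The log2 difference was -0.58 to -0.53 with single mice left out. The call was kept with a pseudocount of 5 (limma adjusted p = 0.046), edgeR (adjusted p = 0.048) and DESeq2 (adjusted p = 1.6e-09). Over all 12 mice with genotype in the model the log2 difference was -0.56 (limma adjusted p = 1.6e-05). Kdm5c and Kdm6a, which also escape, lay at 1562 and 1642 in males against 2120 to 2413 in females and at 600 and 659 against 857 to 917, without overlap, but did not pass (limma adjusted p = 0.24 and 0.26). Ddx3x, the fourth gene of this kind, did not pass either (limma adjusted p = 0.87), with 5505 and 5607 in males against 5839 to 6679 in females. In the 6 USF-1 KO mice the same fit called 6 of 18137 genes (0.0331%), Xist and the 5 Y-linked genes, and Eif2s3x had a log2 difference of -0.57 ± 0.07 SE (limma adjusted p = 0.067).

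The remaining call was mt-Nd6, the respiratory chain subunit encoded on the light strand of mitochondrial DNA. It had 970 and 923 normalised counts in WT 493 and WT 547 and 1807 to 2006 in the 4 females, a log2 difference of -0.98 ± 0.06 SE (limma adjusted p = 0.0037). The KO mice did not repeat it: there the males had 1012 to 1452 and the females 656 to 976, a log2 difference of 0.72 in the opposite direction (limma adjusted p = 0.999). Over all 12 mice with genotype in the model the difference was -0.13 (limma adjusted p = 0.95). Dependence on single mice was strong throughout: leaving out either male, WT 493 or WT 547, left 2 calls, the lone male being assumed to vary like the females, leaving out WT 490 or WT sample573 left 5, and leaving out both WT 490 and WT 493 left 1. With 4 against 2 mice an exact permutation test of a single gene cannot go below p = 0.0667.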

How the data were processed

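Total RNA of 12 hippocampi was made into NEBNext Ultra II RNA libraries; the study calls the data mRNA sequencing, and how mRNA was selected is not given in the sources used here. The authors deposited normalised counts, treated here as a signal: gene counts divided by a size factor of each library. The submitters' processing notes name STAR 2.5.0a, edgeR 3.22.2 and mm10, and the study's methods name DESeq2; counter and strand setting are not given in the sources used here. All 12 columns matched a mouse. Low values were whole multiples of 1 read in 100% of values (tolerance 0.001), which gave each library's reads. Genes with a WT mean of at least 10 were kept. Spread was the SD of log2(normalised count + 1) over the 6 WT mice.

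Sex was tested with limma 3.58.1 (trend, Benjamini-Hochberg adjusted p under 0.05) in R 4.3.3, within each genotype; edgeR 4.0.16 and DESeq2 1.42.0 on the recovered reads were alternatives, and edgeR called 8 genes. The fit was tested on simulated data. Python 3.11.15, numpy 2.4.6, pandas 2.3.3 and matplotlib 3.10.9 did the rest. Gene lengths came from GENCODE M21. Named were the 15 highest means, overall and per kilobase, the 25 largest SDs at a mean of at least 100 and 15 at a mean of at least 10, the 10 smallest SDs at a mean of at least 1000, the 10 genes at each end of 2 components, the sex calls, 3 genes at each side of the limit, and members of 29 lists of cell types and states. Members and lists were chosen with earlier results of these data known, and the genes Cdh3 and Ccl21b after their values were seen. An alternative was counted as unchanged for an SD if it moved less than the SD's own sampling error. Mice are separate animals. Some genes that these rules select are not reported here.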

Additional observations from a re-analysis of the deposited data

Results flagged for a closer look

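Of 29 lists and 99 genes tested, 3 lists and 9 genes had a mouse far from the other 5; chance alone marks about 5 percent of such groups, a rate that does not hold for these genes, many of which were named for their spread or move together. WT 522 was that mouse in all 3 lists, with levels of -0.83 for oligodendrocyte genes, 0.53 for neocortical genes and 0.97 for immediate early genes. It was also the mouse in 8 of the 9 genes. It was highest, in normalised counts, for mt-Co1 (318002), mt-Cytb (216511) and mt-Nd4 (194070), respiratory chain subunits encoded in the mitochondrion. The levels of mt-Co1 and mt-Nd4 are uncertain because of the shared stretches given above. WT 522 was highest as well for the activity-regulated genes Fosb (743) and Homer1 (4929) and for Tbr1 (2021) and Otof (1337), and lowest for the myelin gene Mbp (46239). WT sample573 was the mouse for the endothelial gene Cldn5 (627). WT 490 and WT 493, which are high together in choroid plexus genes, cannot be found by a search for a single distant mouse.

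The sex difference of mt-Nd6 had opposite signs in the genotypes, with a log2 difference between males and females of -0.98 in WT and 0.72 in KO mice, and every male lay on the same side of every female within each genotype. The difference between the genotypes was not tested.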

How the results depend on the processing

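Of 114 comparisons of a summary value with an alternative, 97 kept their direction and size. Of 706 for single genes and lists, 634 did, 31 moved and 41 lost a sex call that the main test made; none reversed. Without a limit on the mean, the median SD between mice was 0.358. Leaving out both WT 490 and WT 493, an alternative chosen after seeing the data, left 5 of the 25 most variable genes, an SD of 0.467 for the choroid plexus level and 1 sex call. The sex calls in WT numbered 20 with DESeq2, 5 with a pseudocount of 0.5, 5 with a mean of at least 50 and 3 without limma's trend, and 15 in KO mice with DESeq2.

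Leaving out single mice gave 2 to 8 sex calls in WT. In KO mice it gave 6 to 19, with 10 without KO 488 and 19 without KO 530. The SD of the level ranged from 0.183 to 0.488 for oligodendrocyte genes and from 0.196 to 0.564 for immediate early genes, lowest without WT 522 in both. The cause was not tested. At 23369928 to 32091173 reads, counting error was a larger part of the spread at low means, with a median counting SD of 0.325 against a median SD of 0.414 at means of 10 to 30. No paired analysis was possible because the mouse numbers are not shared between the genotypes.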
